A study of Mus musculus with 36 samples.

Results

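Mchr1, Slc25a17 and St13 are 3 protein-coding genes that lie next to one another among the tested genes of mouse chromosome 15, and all 3 had lower transcript levels in T41B than in wild-type hippocampal slices. They were chosen for that difference: their genotype fold changes are therefore given as a description, with no test, and the tests concern what the choice did not use. All 3 were found by their mouse Ensembl identifiers among the 55421 genes of the table, and all 3 were among the 19478 genes that passed the low-count filter. Levels are in CPM, the read count of a gene scaled to the size of its library, where TMM scaling corrects the library size for differences in RNA composition.

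Mchr1 encodes the receptor for melanin-concentrating hormone, a hypothalamic peptide. It is a G protein-coupled receptor that sits on the primary cilium of neurons, where cargo such as receptors is carried by the intraflagellar transport and BBSome proteins. Slc25a17 encodes a carrier of the peroxisomal membrane that moves nucleotide cofactors such as coenzyme A into the organelle, which breaks down very long-chain fatty acids and makes ether lipids. St13 encodes Hip, a co-chaperone that binds Hsp70 and takes part in the handover of client proteins between Hsp70 and Hsp90.

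RNA was taken from slices of the right hippocampus of 18 mice aged 16 months, 8 wild-type C57BL/6 (B6) mice and 10 T41B mice. T41B is the Thy1-hAPPLond/Swe line 41, a single transgenic line in which a Thy1 cassette, active mainly in neurons, drives human APP with the London and Swedish mutations. Vehicle or BD10-2, a TrkB and TrkC partial agonist, was given by oral gavage for 3 months. Slices were frozen at once after theta-burst stimulation (3 trains of 10 bursts, each burst of 4 stimuli at 100 Hz, with bursts 200 ms apart) or after a sham procedure of equal length. The slices thus formed 8 groups, and 14 of the 18 mice gave both a sham and a stimulated slice. The main fit does not use this pairing, and an alternative fit that pairs the slices of a mouse does. The 4 vehicle groups held 4 mice each (wild-type sham, wild-type stimulated, T41B sham, T41B stimulated), and with BD10-2 there were 3 wild-type and 5 T41B mice in the sham and again in the stimulated groups.

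The 36 libraries held 11597555 to 28125842 counts (median 18082415), and libraries of the same mouse and stimulation were added, which left 32 samples. In a bulk sample, fewer cells of a type and less RNA per cell cannot be told apart. Summed levels of fixed marker lists differed with genotype: 7 interneuron markers summed to 218 to 339 CPM in wild-type and 148 to 247 CPM in T41B samples, 6 general neuron markers to 3980 to 5750 against 3050 to 5050 CPM, 5 astrocyte markers to 1000 to 1790 against 2100 to 4820 CPM, and 5 microglia markers to 62.5 to 212 against 161 to 604 CPM. The 5 CA1 markers summed to 442 to 579 CPM in wild-type and 406 to 642 CPM in T41B samples, and none of these 5 lists was at 0 in any sample. The sums of 8 CA2 and CA3 markers were 251 to 311 against 201 to 286 CPM. Those of 6 dentate granule markers were 191 to 540 against 193 to 653 CPM, and of 4 subiculum and cortex markers 77.6 to 144 against 63.8 to 118 CPM. In the genotype comparisons in sham vehicle, stimulated vehicle, sham BD10-2 and stimulated BD10-2 slices, edgeR (adjusted p under 0.05) called 1.24%, 1.05%, 1.14% and 2.36% of all genes lower and 5.0%, 4.74%, 4.31% and 8.19% higher in T41B. Of the 7 interneuron markers it called 0, 2 (Sst and Gad1), 3 (Sst, Gad1 and Gad2) and 0 lower, and of the 6 general neuron markers 1 (Syt1), 1 (Snap25), 0 and 0. Of the 8 CA2 and CA3 markers it called 1, 0, 1 and 0 lower (median log2 fold changes -0.25, -0.11, -0.31 and -0.09). Of the 4 subiculum and cortex markers it called 1 lower in sham vehicle and 1 higher in sham BD10-2 slices (medians -0.46, -0.07, -0.02 and 0). No CA1 or dentate granule marker was called. Higher were 5, 3, 5 and 5 of the 5 microglia markers and 2, 2, 2 and 5 of the 5 astrocyte markers. The median log2 fold changes were 1.17, 0.92, 1.19 and 1.54 for the microglia markers. For the astrocyte markers they were 0.31, 0.33, 0.45 and 0.51. Choroid plexus markers summed to 14.1 to 28.6 CPM in 5 of the 8 groups and in part of the others, but reached 1210 CPM in wild-type stimulated vehicle, 528 CPM in T41B sham vehicle and 296 CPM in T41B stimulated vehicle slices. The part of these markers in the results below was not tested.

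Some T41B libraries stood apart in Thy1, the gene whose regulatory sequence the transgene carries. In the 14 wild-type samples, Thy1 ranged from 253 to 403 CPM, and its log2 fold changes in T41B were 2.23, 2.43, 2.37 and 2.47 over the 4 genotype comparisons (edgeR adjusted p = 1.59e-07, 4.4e-08, 2.79e-07 and 1.01e-07). Thy1 was 1034 CPM (sham) and 1054 CPM (stimulated) in Mouse1510 and 1044 CPM (sham) in Mouse1557, against 1468 to 2506 CPM in the other T41B samples. Of the 2 libraries of stimulated slices from Mouse1592, library 1 had 918 CPM of Thy1 and library 2 had 1937 CPM. The genotype values of the 3 genes are given with and without these libraries, a step added after the data were seen. Counts of mouse App ran from 1022 to 1425 CPM in wild-type and from 953 to 1193 CPM in T41B libraries, and App was not called by genotype (lowest edgeR adjusted p = 0.362). Whether reads of the transgene cassette are counted under Thy1 or App is not stated in the sources used here.

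In GRCm38, Mchr1 (ENSMUSG00000050164) lies on the plus strand at chr15:81235499-81238964, Slc25a17 (ENSMUSG00000022404) on the minus strand at chr15:81318911-81360812, and St13 (ENSMUSG00000022403) on the minus strand at chr15:81363669-81400077, a span of 164.6 kb. Slc25a17 and St13 are 2.86 kb apart, and St13 is 60 bp from Xpnpep3, a mitochondrial aminopeptidase gene on the other strand. Mchr1 is 79.9 kb from Slc25a17, and the long noncoding RNA 8430426J06Rik lies between them; it had 66 counts over all 36 libraries and was not tested. No other annotated gene overlaps the 3 gene spans.

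The 250 bases before the start annotated by RefSeq (GRCm38.p6), which matched 2 of the 3 genes, are shown for Mchr1 and Slc25a17, since both were lower in T41B, the difference for which they were chosen. The RefSeq start of Slc25a17 lies inside the gene span given above, so its stretch overlaps the first bases of that span, and positions are counted from the RefSeq start. The first is chr15:81235249-81235498 on the plus strand and the second chr15:81360766-81361015 on the minus strand, each written 5′ to 3′ with matches to 5 searched motifs in capitals.
Mchr1: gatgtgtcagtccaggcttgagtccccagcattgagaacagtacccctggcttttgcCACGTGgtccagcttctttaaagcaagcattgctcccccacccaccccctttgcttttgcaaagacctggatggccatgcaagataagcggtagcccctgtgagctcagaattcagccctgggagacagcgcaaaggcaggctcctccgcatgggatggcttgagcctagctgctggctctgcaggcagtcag
Slc25a17: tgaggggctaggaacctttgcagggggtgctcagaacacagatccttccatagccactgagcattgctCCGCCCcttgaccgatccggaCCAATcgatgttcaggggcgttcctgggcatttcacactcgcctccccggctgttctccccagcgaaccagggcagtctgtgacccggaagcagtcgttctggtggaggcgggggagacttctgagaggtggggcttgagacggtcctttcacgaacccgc
The motifs, searched on both strands, were the TATA box TATAAA, the letters CCAAT of the CAAT box, the GC box GGGCGG, the E-box CACGTG and the cyclic AMP response element TGACGTCA. A match describes letters, not a bound site. The Mchr1 stretch held CACGTG, a letter run found in 6.02% of 32851 promoters of the same length, beginning 193 bases before the start (position -193). The Slc25a17 stretch held CCAAT at position -161, as did 33.8% of promoters, and GGGCGG on the other strand (printed CCGCCC) at position -182, as did 32.7%. The TATA box (12.4% of promoters) and the cyclic AMP response element (1.55%) had no match in either stretch. The 2 stretches shared none of the 5 motifs, and their GC contents were 57.2% for Mchr1 and 61.2% for Slc25a17 against a median of 52.4% over all promoters.

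The question of the genotype comparison was how transcripts of the amyloid model differ from wild type in each treatment and stimulation. Mchr1, the receptor gene, was at 8.72, 10.7, 12.9 and 13.3 CPM in the 4 sham vehicle wild-type mice and at 4.84, 5.63, 5.93 and 9.001 CPM in the 4 T41B mice. In stimulated vehicle slices it was at 9.42, 11.3, 11.4 and 13.4 CPM in wild-type and 5.17, 6.90, 7.48 and 9.18 CPM in T41B mice. In both sets the highest T41B value was that of Mouse1510, and only in the sham set did it reach into the wild-type range.

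With BD10-2, Mchr1 in sham slices was at 11, 11.01 and 11.9 CPM in wild-type and at 4.56, 5.37, 7.16, 7.18 and 7.26 CPM in T41B mice. In stimulated slices it was at 9.43, 11.4 and 11.6 CPM in wild-type and at 4.97, 5.53, 7.07, 7.35 and 7.83 CPM in T41B mice. The groups did not overlap in either set. Over all tested genes, 3.33%, 4.31%, 7.18% and 5.46% had every T41B value below every wild-type value in sham vehicle, stimulated vehicle, sham BD10-2 and stimulated BD10-2 slices. The T41B mean of Mchr1 was 55.6%, 63.1%, 55.9% and 60.5% of the wild-type mean in the same order, with log2 fold changes of -0.85, -0.66, -0.84 and -0.72 (SE 0.19 each).

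Slc25a17, the peroxisomal carrier gene, was at 11.4, 13.4, 14.9 and 15.1 CPM in sham vehicle wild-type mice and at 9.13, 10.1, 11.3 and 11.5 CPM in T41B mice. In stimulated vehicle slices it was at 12.7, 13.2, 13.98 and 14.8 CPM in wild-type and 8.31, 8.92, 8.95 and 9.42 CPM in T41B mice. The stimulated sets were well apart, while in sham slices the highest T41B value, from Mouse1510, was just above the lowest wild-type value.

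With BD10-2, Slc25a17 in sham slices was at 12.7, 14.1 and 14.4 CPM in wild-type and at 9.07, 9.64, 9.80, 9.94 and 13.6 CPM in T41B mice. In stimulated slices it was at 11.6, 12.3 and 13.2 CPM in wild-type and at 7.54, 9.37, 9.43, 9.53 and 10.6 CPM in T41B mice. The sham T41B value inside the wild-type range was that of Mouse1557, and the other T41B values of both sets lay below all wild-type values of their set. The T41B means were 76.5%, 65.1%, 75.8% and 75.1% of the wild-type means in the same order of comparisons, with log2 fold changes of -0.39, -0.62, -0.39 and -0.41 (SE 0.12 each).

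St13, the Hsp70 co-chaperone gene, was at 84.7, 86.1, 89.8 and 90.1 CPM in sham vehicle wild-type mice and at 52.3, 57.7, 63.2 and 69.8 CPM in T41B mice. In stimulated vehicle slices it was at 82.7, 91.4, 96.8 and 104.5 CPM in wild-type and 52.6, 55.1, 57.8 and 65.6 CPM in T41B mice. The groups were separate in both sets, with Mouse1510 again the highest T41B mouse.

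With BD10-2, St13 in sham slices was at 87.6, 95.6 and 97.6 CPM in wild-type and at 50.7, 54.1, 56.0, 59.3 and 75.5 CPM in T41B mice. In stimulated slices it was at 89.3, 90.4 and 91.2 CPM in wild-type and at 55.6, 55.8, 58.0, 58.5 and 64.2 CPM in T41B mice. No T41B value reached a wild-type value, and the highest T41B value of all was that of Mouse1557. The T41B means were 69.3%, 61.5%, 63.2% and 64.7% of the wild-type means, with log2 fold changes of -0.53, -0.70, -0.66 and -0.63 (SE 0.10 each).

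**Figure D1:**
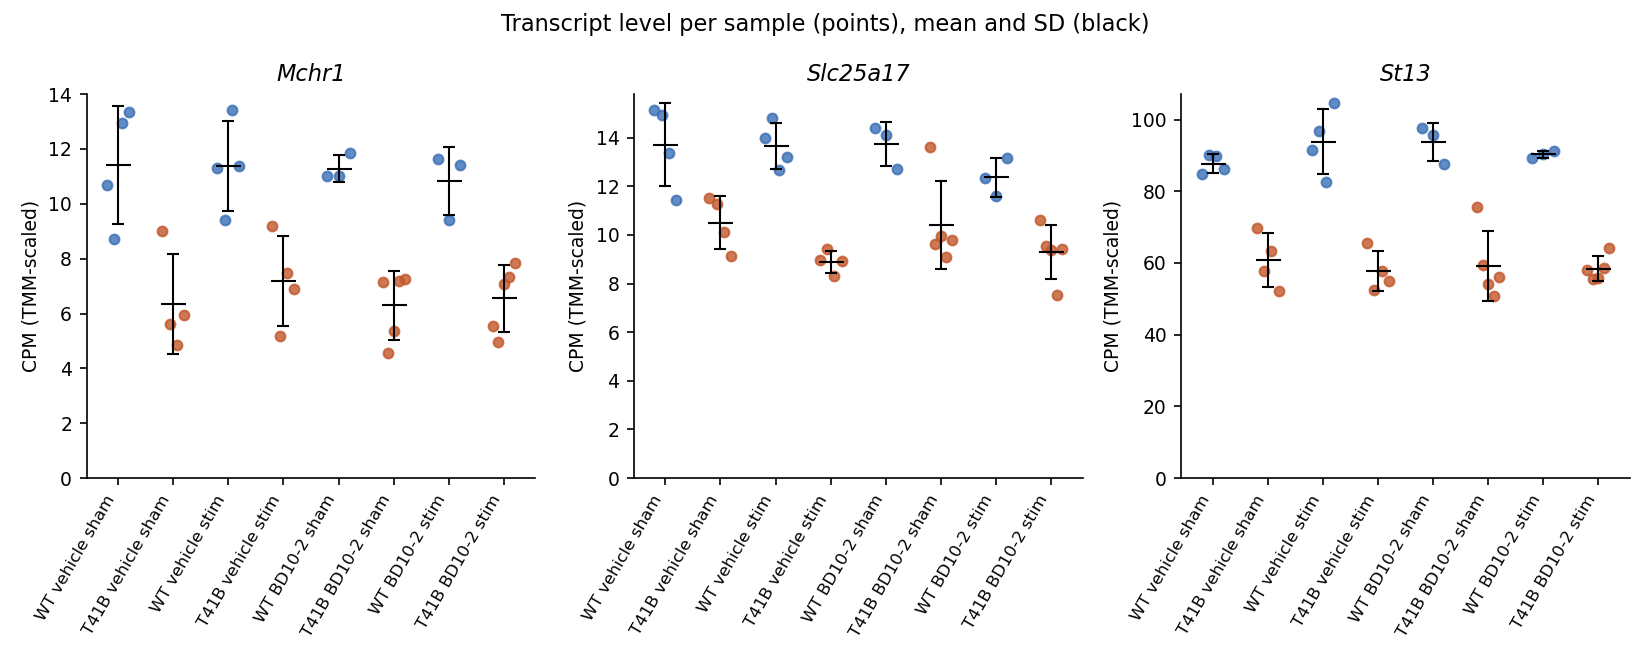
Transcript level of Mchr1, Slc25a17 and St13 in CPM (vertical axis, from 0) in each of the 32 samples (points; blue wild-type, orange T41B), grouped by genotype, treatment and stimulation, with the mean and SD of each group in black. St13 shows no overlap between genotypes, with every T41B sample at or below 75.5 CPM and every wild-type sample at or above 82.7 CPM.

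Leaving out Mouse1510, Mouse1557 and the Mouse1592 library of lower Thy1 gave log2 fold changes in the same 4 comparisons of -1.07, -0.80, -0.89 and -0.77 for Mchr1, -0.43, -0.61, -0.52 and -0.45 for Slc25a17, and -0.61, -0.76, -0.77 and -0.67 for St13. All kept the direction for which the genes were chosen. In each comparison where the genotypes overlapped, the T41B value that did so belonged to Mouse1510 or Mouse1557. Within the batches named in the labels that held both genotypes at one stimulation, T41B minus wild-type differences of mean log2(CPM + 1) were -0.48 to -1.05 for Mchr1, -0.20 to -0.60 for Slc25a17 and -0.33 to -0.92 for St13. Without batch A, whose T41B mouse is Mouse1510, they were -0.48 to -1.05, -0.30 to -0.60 and -0.64 to -0.92. These within-batch values rest on 1 or 2 samples a side. Compared per kb of annotated exon, the wild-type medians were 5.18 CPM per kb for Mchr1, 4.67 for Slc25a17 and 8.75 for St13, and the T41B medians were 3.19, 3.33 and 5.60. The range of St13 lay above those of the other 2 genes in both genotypes, while the ranges of Mchr1 and Slc25a17 overlapped.

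At an edgeR adjusted p under 0.05, 1.24%, 1.05%, 1.14% and 2.36% of all tested genes were called lower in T41B in the 4 comparisons, and 8 genes (0.0411%) in all 4. These were the 3 chosen genes with Crhbp, the corticotropin-releasing hormone binding protein, Zfp385b, a zinc finger gene, Armh4, the potassium channel gene Kcna2 and the sodium channel gene Scn1a; none of the other 5 is on chromosome 15. For the 3 chosen genes these calls are what they were chosen by, and nothing is read from them. At the edge of this line, ordered by the weakest of the 4 calls, Armh4 and Slc25a17 lay just inside, with smallest differences of -0.43 and -0.39 on the log2 scale, and Cadps and Strbp just outside, with -0.29 and -0.30. Over all 32 samples, only Crhbp, St13 and Zfp385b (0.0154% of tested genes) had every T41B value below every wild-type value.

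The genes around the trio were chosen by position alone: the 15 tested genes on each side, from Pdgfb to Csdc2, with no tested gene between the 3. Of these 30 neighbours, 2 were called lower in T41B in sham vehicle slices, where 1.24% of all genes were lower and 6.24% were called either way. Syngr1, a synaptic vesicle protein gene (start at -1144.2 kb from that of Mchr1), differed by -0.48 on the log2 scale (SE 0.14; adjusted p = 0.043 by edgeR). Cacna1i, a T-type calcium channel gene (start at -948.3 kb), differed by -0.47 (SE 0.14; adjusted p = 0.0415 by edgeR). No neighbour was called in either direction by edgeR in the other 3 comparisons, in which 5.79%, 5.45% and 10.6% of all genes were called in either direction; 7 neighbours in sham vehicle and 1, 4 and 6 in these 3 had an unadjusted p under 0.05 (21.4%, 17.4%, 18.9% and 23.1% of all genes), and DESeq2 called 1, Ep300, lower in stimulated BD10-2 slices (log2 fold change -0.15, adjusted p = 0.0417). The median log2 fold changes of the 30 neighbours were 0.01, -0.07, -0.03 and -0.06, against 0.00, -0.03, 0.01 and -0.02 for all tested genes.

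Next to St13, Xpnpep3 had log2 fold changes of -0.27, -0.26, -0.18 and -0.20 (SE 0.11 each; edgeR adjusted p = 0.133, 0.17, 0.366 and 0.271), none past the threshold, and its mean was 11.6 CPM in T41B and 13.6 CPM in wild-type samples. Its unadjusted edgeR p was 0.0163 in sham vehicle and 0.0194 in stimulated vehicle slices. In the latter it was the 1 neighbour with an unadjusted p under 0.05. On the other side, Mrtfa, a transcriptional coactivator gene 44.7 kb from Mchr1, had log2 fold changes of 0.09, -0.02, -0.09 and -0.13 (SE 0.12 to 0.13), also not past the threshold. Without Mouse1510, Mouse1557 and the Mouse1592 library of lower Thy1, Syngr1 and Cacna1i were again the 2 neighbours called lower in sham vehicle slices. When 1 mouse was left out, 0 to 2 were called: neither without Mouse1509, Mouse1524, Mouse1551 or Mouse1553, only Cacna1i without Mouse1522 and only Syngr1 without Mouse1579. Neither was called with batch as a covariate, with only the groups compared in the fit or with 1 library per mouse and stimulation.

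**Figure D2:**
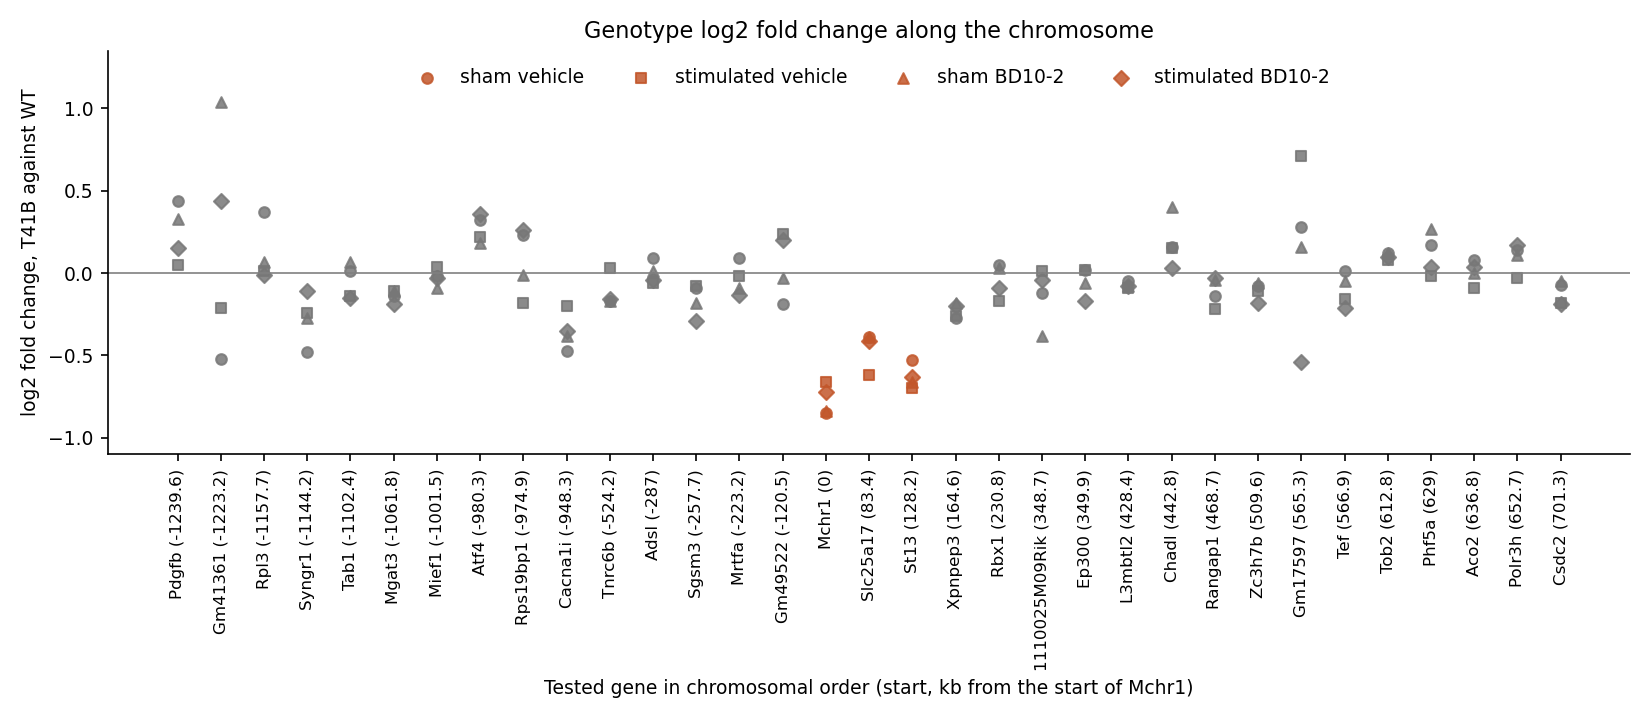
Log2 fold change of T41B against wild type (vertical axis) for the 3 chosen genes (orange) and the 30 nearest tested genes (grey) in chromosomal order, with each gene's start in kb from the start of Mchr1; symbols mark the 4 comparisons. The 3 genes, chosen for this difference, lie between -0.85 and -0.39 in every comparison, and the medians of the neighbours between -0.07 and 0.01. Single neighbours ran from -0.52 to 0.44 in sham vehicle and from -0.26 to 0.71 in stimulated vehicle slices. With BD10-2 they ran from -0.38 to 1.04 in sham and from -0.54 to 0.44 in stimulated slices.

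Levels of the 3 genes were then compared between mice within each genotype and stimulation, as Pearson and Spearman correlations of log2(CPM + 1) with exact two-sided permutation tests, 32 relations in all. In the 9 sham T41B mice, St13 was lower where Thy1 was higher (r = -0.86, exact permutation p = 0.00566, adjusted p = 0.0906; rho = -0.73, p = 0.0311, adjusted p = 0.182), and so was Slc25a17 (r = -0.80, exact permutation p = 0.0119, adjusted p = 0.127; rho = -0.75, p = 0.0255, adjusted p = 0.182). Neither passed the adjustment, and both rest on Mouse1510 and Mouse1557: without these 2 mice r was -0.39 for St13 and -0.32 for Slc25a17. Mchr1 gave r = -0.42 with Thy1 (exact permutation p = 0.261; rho = 0.08, p = 0.843) and 0.68 without the same mice. In the 9 stimulated T41B slices, r with Thy1 was -0.50 for St13 (exact permutation p = 0.169; rho = -0.40, p = 0.291), -0.27 for Slc25a17 (exact permutation p = 0.486; rho = -0.48, p = 0.194) and -0.14 for Mchr1 (exact permutation p = 0.731; rho = -0.15, p = 0.708). In the 7 sham wild-type slices, which carry no transgene, it was -0.68 for St13 (exact permutation p = 0.0994; rho = -0.82, p = 0.0341, adjusted p = 0.182), -0.71 for Slc25a17 (exact permutation p = 0.0653; rho = -0.43, p = 0.354) and 0.82 for Mchr1 (exact permutation p = 0.023, adjusted p = 0.147; rho = 0.57, p = 0.2). In the 7 stimulated wild-type slices it was 0.32 for St13 (exact permutation p = 0.5; rho = 0.29, p = 0.556), 0.24 for Slc25a17 (exact permutation p = 0.603; rho = 0.39, p = 0.396) and 0.63 for Mchr1 (exact permutation p = 0.132; rho = 0.43, p = 0.354). The sign for St13 and Slc25a17 was thus negative in 3 of the 4 sets and for Mchr1 positive in both wild-type sets. This split rests on 2 mice a set. Without the 2 mice farthest from the median of Thy1, r was -0.30 to -0.88 for St13 over the 4 sets. It was then -0.24 to -0.68 for Slc25a17 and 0.31 to 0.69 for Mchr1. These values rest on 5 or 7 mice, and their lowest unadjusted exact permutation p was 0.075.

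Slc25a17 and St13, the close pair, gave r = 0.88 in sham T41B mice (exact permutation p = 0.00217, adjusted p = 0.0695; rho = 0.85, p = 0.00607, adjusted p = 0.108) and 0.57 without Mouse1510 and Mouse1557. In stimulated T41B slices the same pair gave r = -0.10 (exact permutation p = 0.801; rho = -0.10, p = 0.81), and the 2 values were not tested against each other. Mchr1 and St13 gave r = 0.76 in stimulated T41B slices (exact permutation p = 0.018, adjusted p = 0.144; rho = 0.80, p = 0.0138, adjusted p = 0.148) and 0.30 in sham T41B slices (exact permutation p = 0.427; rho = -0.02, p = 0.982). In wild-type slices this pair gave r = -0.21 (sham; exact permutation p = 0.66; rho = -0.25, p = 0.595) and -0.45 (stimulated; exact permutation p = 0.303; rho = -0.64, p = 0.139). Slc25a17 and St13 gave 0.32 (exact permutation p = 0.496; rho = 0.14, p = 0.783) and 0.41 (exact permutation p = 0.348; rho = 0.75, p = 0.0663) in the same slices. In sham wild-type slices Mchr1 and Slc25a17 went opposite ways (r = -0.79, exact permutation p = 0.0359, adjusted p = 0.171; rho = -0.93, p = 0.00675, adjusted p = 0.108; 7 mice). This pair gave r = -0.14 in stimulated wild-type (exact permutation p = 0.795; rho = -0.43, p = 0.354), 0.36 in sham T41B (exact permutation p = 0.35; rho = 0.13, p = 0.744) and -0.49 in stimulated T41B slices (exact permutation p = 0.174; rho = -0.48, p = 0.194). None of the 32 relations passed the adjustment.

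**Figure D3:**
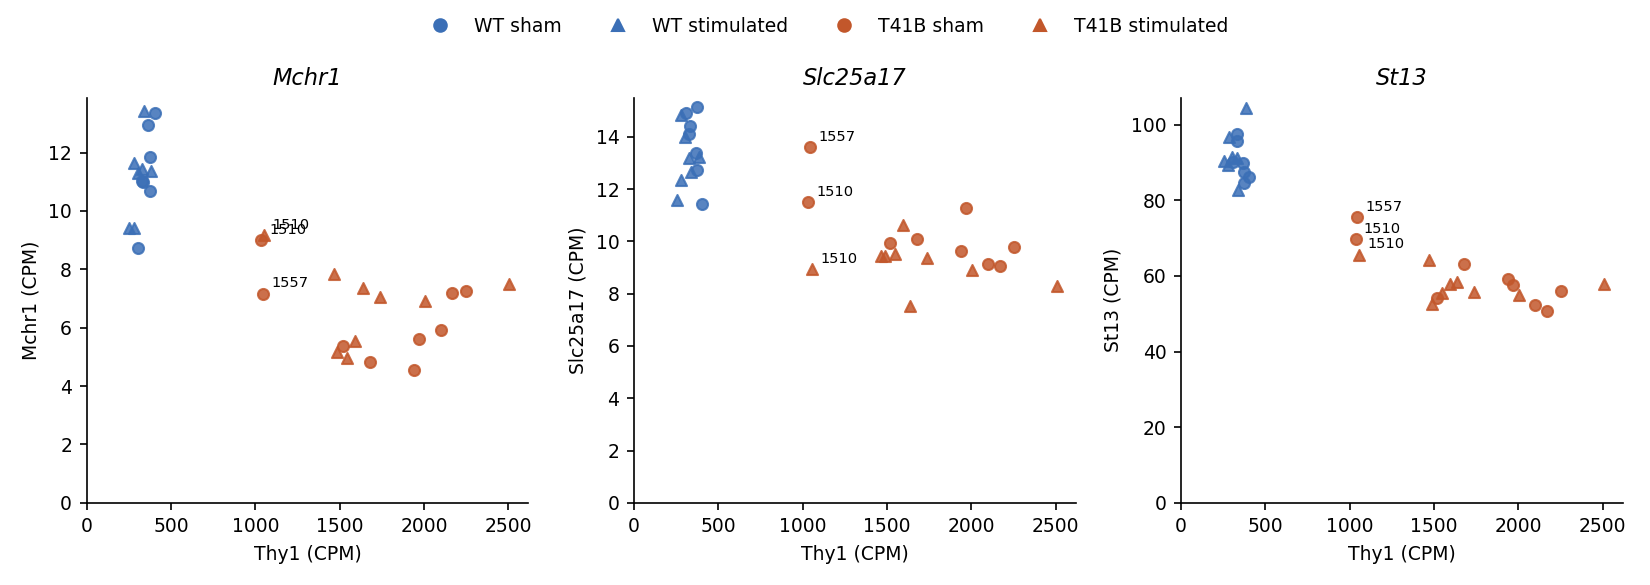
Level of each gene (vertical axis, CPM) against Thy1 (horizontal axis, CPM) in the 32 samples, with wild type in blue, T41B in orange, sham as circles and stimulated as triangles; Mouse1510 and Mouse1557 are labelled. St13 in these 2 mice was 65.6 to 75.5 CPM, above the 50.7 to 64.2 CPM of the other T41B samples and below all wild-type samples.

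Library 1 of the stimulated Mouse1592 slices, with low Thy1, had 76.9 CPM of St13, 11.2 CPM of Slc25a17 and 9.09 CPM of Mchr1. Library 2 of the same mouse and stimulation had 54.0, 8.04 and 6.85 CPM, and the sham library of this mouse 55.9, 9.79 and 7.25 CPM. All 3 genes were thus higher in the library with lower Thy1, a comparison of single libraries with no replicate.

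As a description over the 32 samples, after the 8 group means were removed, r was -0.15 for Mchr1 with Slc25a17, 0.27 for Mchr1 with St13 and 0.53 for Slc25a17 with St13. The genes most like each one on this measure were Gabbr2 (0.82), Srgap3 (0.81) and Lhfpl4 (0.74) for Mchr1, Zfp85 (0.73), Zfp330 (0.71) and Zfp991 (0.70) for Slc25a17, and AC161438.1 (0.67), Aldh5a1 (0.63) and Gm12693 (0.58) for St13. The 3 genes thus shared no nearest gene, and the samples share mice, batches and tissue makeup. Without removing group means, the genes most like the mean of the trio were Crhbp (0.88), Mirt1 (0.84), Snx25 (0.84), Gpr101 (0.83) and Zfp385b (0.83), a measure that holds the genotype difference by which the trio was chosen.

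None of the 3 genes passed the threshold after theta-burst stimulation in any of the 4 combinations of genotype and treatment, whereas edgeR called 12.3% of all tested genes in wild-type vehicle, 8.87% in wild-type BD10-2, 21.5% in T41B vehicle and 22.9% in T41B BD10-2 slices. None of these 12 tests reached an unadjusted p under 0.05, which 26.3%, 22.6%, 33.7% and 34.4% of all genes did, and DESeq2 called none either. For Mchr1 the log2 fold changes of stimulated against sham slices were -0.01, -0.05, 0.19 and 0.06 in that order, with 95% intervals inside -0.49 to 0.58. For St13 they were 0.10, -0.05, -0.07 and -0.02, with intervals inside -0.28 to 0.30.

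Slc25a17 gave log2 fold changes of 0.00, -0.15, -0.24 and -0.17 with stimulation. The lowest, in T41B vehicle mice, was -0.24 (SE 0.12, 95% interval -0.48 to 0.00, edgeR adjusted p = 0.158). With the mouse as replicate block, which pairs the slices of a mouse, it was -0.24 (SE 0.08, edgeR adjusted p = 0.0458) in a fit that called 14.8% of all genes lower and 29.5% in either direction. All 4 of these mice had a lower value in the stimulated slice, by 0.33 in Mouse1510, 0.23 in Mouse1551, 0.25 in Mouse1553 and 0.03 in Mouse1579 on the log2(CPM + 1) scale. With the same block the T41B BD10-2 value turned from -0.17 to 0.02. The differences there were 0.13, -0.06, 0.04 and -0.05 in Mouse1563, Mouse1564, Mouse1570 and Mouse1592. The blocked wild-type values were 0.00 with vehicle and -0.25 with BD10-2, and of these 4 blocked values only that of T41B vehicle mice passed the threshold.

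BD10-2 against vehicle gave log2 fold changes of -0.14 to 0.09 for the 3 genes over the 4 combinations of genotype and stimulation, with 95% intervals inside -0.50 to 0.39, and none of these 12 tests had an unadjusted p under 0.05. EdgeR called 0.0% of all tested genes in these comparisons, with 1.92%, 5.61%, 2.21% and 3.9% at an unadjusted p under 0.05 in wild-type sham, wild-type stimulated, T41B sham and T41B stimulated slices, and DESeq2 called 24 genes in stimulated wild-type slices (1 higher, 23 lower) and none in the others. Each batch held 1 treatment, so treatment and batch cannot be told apart. The interactions of genotype with stimulation and with BD10-2 were -0.23 to 0.21 for the 3 genes with 95% intervals inside -0.61 to 0.74 and no unadjusted p under 0.05 in 12 tests. EdgeR called 0.0% of all genes for these terms. At an unadjusted p under 0.05 were 8.64%, 4.34%, 1.87% and 4.83% for stimulation with vehicle, stimulation with BD10-2, treatment in sham and treatment in stimulated slices. DESeq2 called 1, 18, 0 and 0 genes. The intervals do not show that the genotype difference was the same in each setting.

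**Figure D4:**
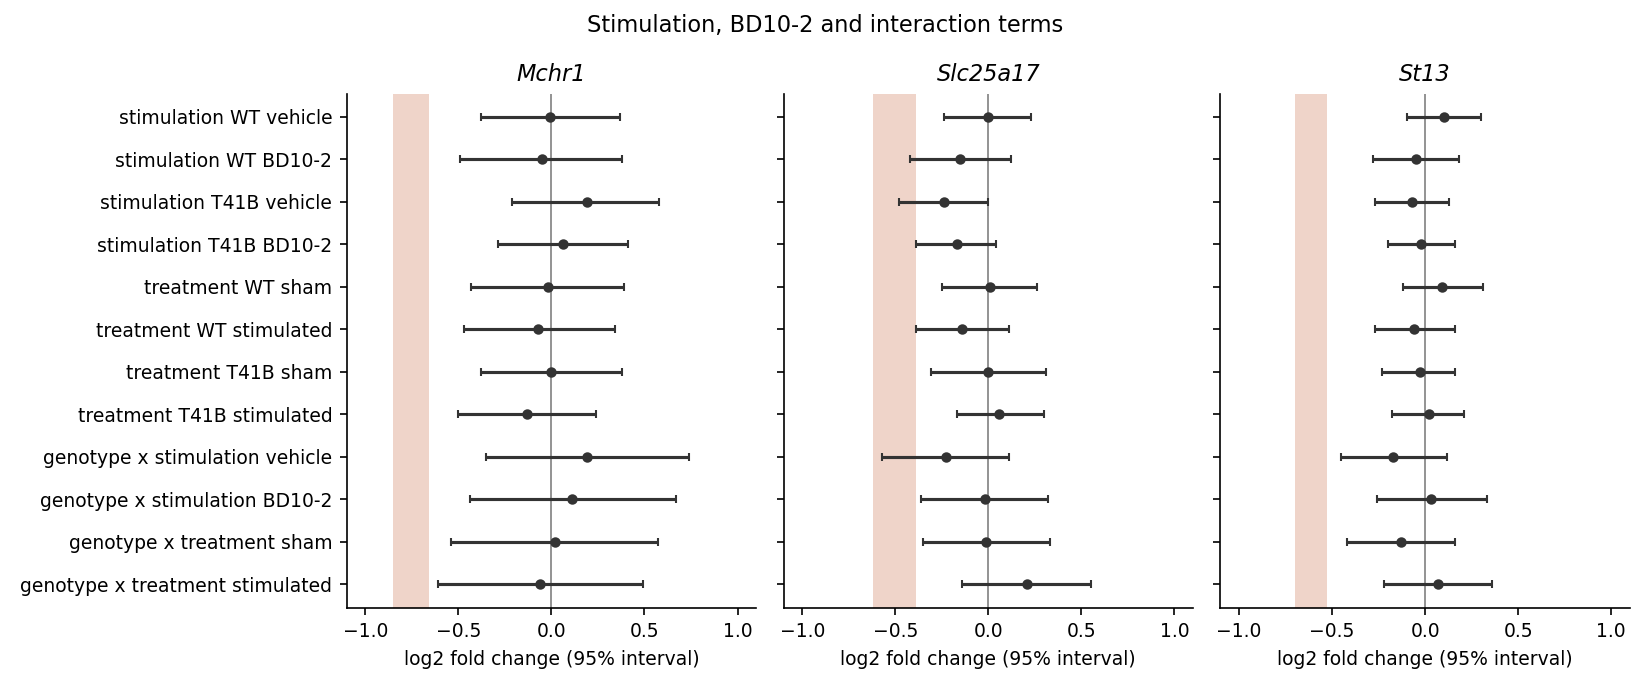
Log2 fold changes (points) with 95% intervals (lines) of the 3 genes for stimulation, BD10-2 treatment and the interactions with genotype; the orange band spans the 4 genotype log2 fold changes of each gene. All intervals of the 3 genes include 0. That of Slc25a17 after stimulation in T41B vehicle mice runs from -0.48 to 0.00, its upper end rounded (edgeR unadjusted p = 0.0545).

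The other genes of each member's pathway were taken from fixed lists. Of 20 genes of ciliary receptor transport, 19 were tested; Pmch, the precursor of melanin-concentrating hormone, had 0 to 7 counts a library and was not tested. In T41B against wild type, none was called higher (edgeR called 5.0%, 4.74%, 4.31% and 8.19% of all genes higher). In stimulated vehicle slices 2 were called lower, the BBSome gene Bbs5 (log2 fold change -0.60, SE 0.17, edgeR adjusted p = 0.0283) and the intraflagellar transport gene Ift88 (-0.34, SE 0.10, edgeR adjusted p = 0.0354). The list's medians over the 4 genotype comparisons were -0.10, -0.21, -0.10 and -0.19, below those of all genes, and its summed level was 508 to 592 CPM in wild-type and 435 to 544 CPM in T41B samples. Gpr161, a ciliary receptor, was called lower in sham BD10-2 slices (-0.56, SE 0.16, edgeR adjusted p = 0.0275), and Ttc8, Ift88 and Ift140 in stimulated BD10-2 slices (-0.46, -0.39 and -0.27). The counts called lower, 0, 2, 1 and 3 of 19, stand beside 1.24%, 1.05%, 1.14% and 2.36% of all genes. When 1 mouse was left out they ran over 0 to 3 in stimulated vehicle (0 without Mouse1509, Mouse1551 or Mouse1553), 0 to 1 in sham BD10-2 (0 without any of 6 mice) and 0 to 4 in stimulated BD10-2 slices (0 without Mouse1565 or Mouse1571). The count called higher in stimulated BD10-2 slices was 2 without Mouse1592.

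After stimulation of T41B vehicle slices, 9 of the 19 ciliary genes were called lower, where 9.83% of all genes were, with a median of -0.24 against -0.05 for all genes. The largest was the BBSome gene Bbs7 at -0.64 (SE 0.12, edgeR adjusted p = 0.000176), then Bbs5 at -0.56, Arl6 at -0.42 and Lztfl1 at -0.41. Arl13b, a ciliary GTPase gene, rose by 0.37 (11.7% of all genes were called higher). In T41B BD10-2 slices 5 were called lower (9.52% of all genes) and 2 higher (13.3% of all genes), Arl13b at 0.52 and Tulp3 at 0.35. In wild-type slices 1 was called higher with vehicle (Arl13b, 0.40; 8.21% of all genes were higher and 4.1% lower) and 1 lower with BD10-2 (Arl6, -0.44; 2.58% of all genes). The T41B vehicle count was 4 with no filter on low counts, 3 with only the groups compared in the fit and 4 to 8 when 1 mouse was left out (4 without Mouse1551 or Mouse1553). The T41B BD10-2 count was 1 with no filter or with the mouse as replicate block, and 1 to 5 when 1 mouse was left out (1 without Mouse1557 or Mouse1564). The single calls of Arl13b in wild-type and T41B vehicle slices and of Arl6 in wild-type BD10-2 slices were each lost without any of 3 mice. Cell type markers also moved after stimulation of T41B vehicle slices: 5 of 5 microglia markers were called lower (median -1.11; summed level 161 to 227 CPM against 318 to 604 CPM in sham slices), 2 of 6 dentate granule markers (median -0.71; 242 to 318 against 292 to 653 CPM) and 1 of 5 oligodendrocyte markers (median -0.27; 3160 to 7750 against 4470 to 9430 CPM), and 3 of 5 astrocyte markers were called higher (median 0.39). Also called higher in these slices were 1 of 5 endothelial (median 0.68), 1 of 5 CA1 (0.22), 1 of 7 choroid plexus (-0.62) and 1 of 5 thalamus markers (-0.06). Of 4 subiculum and cortex markers, 1 was called higher and 1 lower (median 0.25). After stimulation in wild-type vehicle, wild-type BD10-2 and T41B BD10-2 slices, 4, 5 and 4 of the 5 microglia markers were called lower (medians -1.01, -1.11 and -0.77) and 3, 0 and 3 of the 5 astrocyte markers higher. Of the 6 general neuron markers 1, 1 and 3 were called lower there (medians -0.13, -0.32 and -0.24), of the 5 CA1 markers 0, 0 and 2 higher, and of the 7 choroid plexus markers 7, 1 and 1 higher (medians 4.79, -0.10 and 0.26). The part of these markers in the ciliary, peroxisomal and chaperone counts after stimulation was not tested.

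Of the 9 G protein and regulator genes through which the receptor can signal, Gnai2, an inhibitory G protein subunit, was called higher in T41B in sham vehicle (log2 fold change 0.45), sham BD10-2 (0.47) and stimulated BD10-2 slices (0.50; SE 0.12 to 0.13). Its relative Gnai1 was called lower in stimulated vehicle slices (-0.40, SE 0.11, edgeR adjusted p = 0.023). These single calls among 9 genes stand beside 5.0%, 4.31% and 8.19% of all genes called higher and 1.05% called lower. Each call was lost when some 1 mouse was left out: Gnai2 in sham vehicle without any of 5 mice, in sham BD10-2 without Mouse1565, Mouse1571 or Mouse1590 and in stimulated BD10-2 slices without Mouse1565, and Gnai1 without Mouse1510, Mouse1524 or Mouse1551. The list's medians were within -0.05 and 0.03 in the genotype comparisons.

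Of 39 peroxisomal genes, 38 were tested, and the genotype comparisons called few of them. In sham vehicle slices 3 were called higher (5.0% of all genes were): Pxmp2, a membrane channel gene (0.78, SE 0.23, edgeR adjusted p = 0.0423), Hacl1 (0.50) and Hsd17b4, an enzyme of peroxisomal β-oxidation (0.41). Ehhadh, of the same pathway, was called higher in sham BD10-2 slices (0.90, SE 0.21, edgeR adjusted p = 0.00822; 4.31% of all genes were higher). In stimulated BD10-2 slices 1 was called higher (8.19% of all genes) and 1 lower (2.36%), and in stimulated vehicle slices none was called. When 1 mouse was left out, the sham vehicle count ran from 1 (without Mouse1509, Mouse1513, Mouse1522, Mouse1551 or Mouse1553) to 6 (without Mouse1510), Ehhadh was not called without Mouse1590, and both counts in stimulated BD10-2 slices ran over 0 to 1. The medians were 0.12, -0.08, 0.07 and 0.02, above 0 in 3 of the 4 comparisons. Slc25a17 was chosen for being lower in T41B, so nothing is read from its distance to these medians.

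After stimulation of T41B vehicle slices, 12 of the 38 peroxisomal genes were called lower and 2 higher, with a median of -0.19, where 9.83% of all genes were lower and 11.7% higher. The largest declines were in Pecr (-0.72), an enoyl-CoA reductase gene, Nudt12 (-0.58), Pex2 (-0.57) and Pxmp4 (-0.55), and the import receptor gene Pex5 rose by 0.42 (SE 0.10, edgeR adjusted p = 0.00354). In T41B BD10-2 slices 4 were called lower and 2 higher, with a median of -0.17; 9.52% of all genes were lower, a share near that of the list, and 13.3% higher. In wild-type slices 2 were called higher with vehicle (8.21% of all genes) and 1 lower with BD10-2 (2.58%), counts that ran over 0 to 1 when 1 mouse was left out. With only the groups compared, 6 were called lower in T41B vehicle slices, and with batch as a covariate 8 in T41B BD10-2 slices.

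Of 31 genes of the Hsp70 and Hsp90 machinery, the genotype comparisons called Hspa4l, a relative of Hsp70, lower in stimulated vehicle (-0.27), sham BD10-2 (-0.32) and stimulated BD10-2 slices (-0.28; SE 0.08 each). Higher were Hspa2 in sham vehicle (0.39) and stimulated BD10-2 slices (0.42), and the co-chaperone gene Bag3 in sham (0.65) and stimulated BD10-2 slices (0.90). The counts called lower were 0, 1, 1 and 1 of 31, beside 1.24%, 1.05%, 1.14% and 2.36% of all genes, and those called higher 1, 0, 1 and 2, beside 5.0%, 4.74%, 4.31% and 8.19%. When 1 mouse was left out, the higher count ran over 0 to 4 in sham vehicle (0 without Mouse1513 or Mouse1553, 4 without Mouse1524) and 0 to 1 in sham BD10-2 slices, the lower count over 0 to 1, 0 to 2 and 0 to 1 in the last 3 comparisons, each with 5 or more mice that gave 0. The 2 higher calls in stimulated BD10-2 slices stayed 2 in number. The median log2 fold changes of the 31 genes over the 4 genotype comparisons were 0.07, -0.06, -0.03 and 0.02. St13, chosen for its difference, gave -0.53 to -0.70, so nothing is read from its distance to these medians.

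Stimulation raised 6, 3, 4 and 7 of these 31 genes in wild-type vehicle, wild-type BD10-2, T41B vehicle and T41B BD10-2 slices, where 8.21%, 6.29%, 11.7% and 13.3% of all genes were called higher. Called lower were 0, 0, 1 and 3, where 4.1%, 2.58%, 9.83% and 9.52% were. When 1 mouse was left out, the higher counts ran over 3 to 7 (3 without Mouse1509, Mouse1513 or Mouse1524), 2 to 3, 3 to 4 and 5 to 7, and the 3 called lower became 1 without Mouse1557, Mouse1563 or Mouse1564. Bag3 rose in all 4, by log2 fold changes of 1.13, 0.88, 1.0 and 1.12, as did the inducible Hsp70 genes Hspa1a (1.16, 1.02, 0.56 and 0.91) and Hspa1b (0.96, 0.87, 0.61 and 0.92). Hspa1a and Hspa1b are near-identical, so the division of reads between them is uncertain. The median log2 fold changes of the 31 genes were 0.11, 0.05, -0.05 and 0.04 in the same order. St13, which binds the same chaperones, gave 0.10, -0.05, -0.07 and -0.02 in the same slices.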

How the data were processed

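For 36 libraries, the values deposited by the authors are expected counts from RSEM: estimates per gene, some with decimals, without scaling for depth. Per the submitters' processing notes, the tools included cutadapt 1.8.1, STAR 2.7.6a, RSEM 1.3.1, featureCounts 1.6 and SAMtools 1.11, and the builds GRCm38.p6 and mm10; per the labels' protocols, libraries were ribosomal RNA-depleted and stranded, and the strand setting of the counting is not given in the sources used here. RSEM divides reads between similar transcripts, which makes the counts of near-identical genes uncertain.

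Expected counts were rounded, libraries of equal mouse and stimulation (4 combinations) were added, and 19478 of 55421 genes passed edgeR's filterByExpr (minimum count 10, 8 groups). A single fit with 1 coefficient per group (edgeR 4.0.16, R 4.3.3, TMM, quasi-likelihood F test, no covariate) gave 16 comparisons; Benjamini-Hochberg adjustment ran over the whole set of tested genes, and genes were called at an adjusted p under 0.05. The code was tested on simulated data. Symbols matched 55154 identifiers and missed 267; positions and exon lengths are from GENCODE M21 (GRCm38). The 4 same-label library pairs differed by more than sampling noise (chi-square per degree of freedom 7.44 to 28.9, against 6.37 to 69.4 for 62 pairs of different mice).

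Slices were paired by mouse number, a label: over 14 mice, deviations of sham and stimulated slices from their group means correlated at a mean of 0.29 (0.05 to 0.55), against -0.08 for 52 pairs of different mice. The mice are the replicates. Alternatives were DESeq2 1.42.0, RLE size factors, no low-count filter, only the groups compared, batch as a covariate, the mouse as replicate block, 1 library per mouse and stimulation, and leaving out libraries or mice.

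The 3 genes, the gene lists and the marker lists were chosen with earlier results of these data known. Genes were named by rule: the 3 genes with Thy1 and App, neighbours called by genotype, up to 4 called genes per list and comparison by size, the genes most alike, and genes called lower in all 4 genotype comparisons. Mrtfa and Xpnpep3 were named for their position, and the remaining genes named were chosen after their values were seen. Some genes called in the peroxisomal list are not reported here by name.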

Additional observations from a re-analysis of the deposited data

Results flagged for a closer look

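Slc25a17 in the sham slices of BD10-2-treated T41B mice was 13.6 CPM in Mouse1557, while the other 4 mice lay between 9.07 and 9.94 CPM. The gap from Mouse1557 to the nearest mouse took 0.81 of the range of the group, above the critical value of 0.71 for 5 samples. Of 24 groups of a gene looked at in this way, this was the 1 that stood out, and chance alone singles out about 1 in 20. Both libraries of this mouse were high, at 14.2 and 13.1 CPM, and its Thy1 was 1044 CPM against 1517 to 2251 CPM in the other 4 mice. Whether the 2 values are related was not tested.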

How the results depend on the processing

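The genotype log2 fold changes of Mchr1, Slc25a17 and St13 were below 0 in all 183 alternative values (-1.07 to -0.29). These alternatives refit the libraries by which the genes were chosen, so nothing is read from the direction. With batch as a covariate, Slc25a17 moved to -0.52 in stimulated vehicle and St13 to -0.53 in stimulated BD10-2 slices. No alternative brought a treatment or interaction value of the 3 genes past the threshold, and 1 brought a stimulation value past it: the mouse as replicate block (Slc25a17, T41B vehicle, -0.24, adjusted p = 0.0458), which changed no other call of the 3 genes. Signs changed for values that lay between -0.17 and 0.03, none of them past the threshold. With no low-count filter, Mchr1 was 0.02 for stimulation in wild-type vehicle, 0.01 for BD10-2 in wild-type sham and -0.01 for genotype × treatment in sham slices; that interaction was also -0.01 with 1 library per label set, and the stimulated one 0.04 there and 0.03 without the low-Thy1 libraries. Slc25a17 after stimulation in T41B BD10-2 slices was 0.02 with the replicate block; its genotype × stimulation term with BD10-2 was 0.20 with batch, 0.27 with the replicate block, 0.03 with 1 library per label set and 0.07 without the low-Thy1 libraries; and its genotype × treatment term in sham slices was 0.01 with DESeq2 and with only the groups compared. St13 after stimulation in T41B BD10-2 slices was 0.04 with batch, 0.09 with the replicate block, 0.02 with 1 library per label set and 0.03 without the low-Thy1 libraries; without the Mouse1592 library, BD10-2 in stimulated T41B slices was -0.03 and genotype × stimulation with BD10-2 was -0.01. Leaving out 1 mouse gave ranges that crossed 0 for Mchr1 in stimulation of wild-type vehicle (-0.03 to 0.08) and BD10-2 mice (-0.14 to 0.01), in treatment of wild-type sham (-0.13 to 0.06), wild-type stimulated (-0.15 to 0.02), T41B sham (-0.11 to 0.22) and T41B stimulated slices (-0.26 to 0.01), and in genotype × treatment, sham (-0.10 to 0.23) and stimulated (-0.19 to 0.08). They also did for Slc25a17 in stimulation of wild-type vehicle mice (-0.07 to 0.04), treatment of wild-type sham (-0.07 to 0.06) and T41B sham slices (-0.12 to 0.05), genotype × stimulation with BD10-2 (-0.10 to 0.10) and genotype × treatment in sham slices (-0.13 to 0.08), and for St13 in stimulation of T41B BD10-2 mice (-0.08 to 0.09), treatment of T41B sham (-0.14 to 0.05) and T41B stimulated slices (-0.03 to 0.08) and genotype × stimulation with BD10-2 (-0.01 to 0.14). Of the neighbours called lower in sham vehicle slices (2), 0 were called with only the groups compared, with batch or with 1 library per label set, and 0 to 2 when 1 mouse was left out. In sham BD10-2 slices 1 neighbour was called higher with batch (Pdgfb) and 1 with 1 library per label set (Chadl); in stimulated BD10-2 slices 1 was called higher with batch (Atf4), 1 lower with DESeq2 (Ep300) and 1 lower without the Mouse1592 library (Tef), and 0 to 1 in each direction when 1 mouse was left out. Without the 2 mice farthest in x, r turned to -0.36 (Slc25a17 and St13, wild-type sham), -0.30 and -0.65 (Thy1 with Slc25a17 and with St13, wild-type stimulated), 0.68 and 0.31 (Thy1 with Mchr1, T41B sham and stimulated) and -0.67 (Thy1 in the 2 slices of T41B mice); with treatment group means removed it turned to -0.12 (Thy1 and Slc25a17, wild-type stimulated) and 0.30 (Slc25a17 in the 2 slices of T41B mice). Genes called lower over the whole table in sham vehicle slices numbered 242, against 416 with DESeq2, 132 with no low-count filter, 144 with 1 library per label set, 21 with batch, 19 with only the groups compared and 42 (without Mouse1551) to 642 (without Mouse1510) when 1 mouse was left out. The cause of these differences was not tested. Mchr1 and Slc25a17 had 83 to 732 counts a sample, which limits their precision more than that of St13 (615 to 4961).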

Other observations

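After stimulation, 2, 2, 2 and 3 of the 30 neighbours of the trio were called in wild-type vehicle, wild-type BD10-2, T41B vehicle and T41B BD10-2 slices, beside 12.3%, 8.87%, 21.5% and 22.9% of all genes, so the neighbours as a set were not called at a higher share than other genes. Atf4, a transcription factor of the stress response that begins before Mchr1 (start at -980.3 kb), rose in all 4 combinations, by log2 fold changes of 1.05 (wild-type vehicle), 0.88 (wild-type BD10-2), 0.95 (T41B vehicle) and 1.06 (T41B BD10-2), with SE of 0.12 to 0.16 and edgeR adjusted p of 2.94e-06, 0.000359, 6.95e-06 and 1.05e-07. Tef, a clock-output transcription factor gene 566.9 kb past the start of Mchr1, fell by 0.24 in T41B vehicle (SE 0.08, edgeR adjusted p = 0.0368) and by 0.28 in T41B BD10-2 slices (SE 0.07, edgeR adjusted p = 0.00503). The other calls were Syngr1 lower in wild-type vehicle (-0.43), Ep300 higher in wild-type BD10-2 (0.21) and Tob2 higher in T41B BD10-2 slices (0.25). These genes were chosen after their values were seen.

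Levels in the sham and stimulated slices of the same mouse were also compared. Pearson's r across the 8 T41B mice with both slices was 0.71 for Mchr1 (exact permutation p = 0.0491, adjusted p = 0.197; rho = 0.64, p = 0.0962), -0.16 for Slc25a17 (exact permutation p = 0.697; rho = -0.14, p = 0.752) and 0.59 for St13 (exact permutation p = 0.123; rho = 0.55, p = 0.171). Without the 2 mice farthest from the median, r was 0.41 for Mchr1, -0.13 for Slc25a17 and 0.14 for St13. Across the 6 wild-type mice with both slices, r was 0.71 for Mchr1 (exact permutation p = 0.107; rho = 0.60, p = 0.242), 0.22 for Slc25a17 (exact permutation p = 0.681; rho = 0.43, p = 0.419) and -0.39 for St13 (exact permutation p = 0.468; rho = -0.43, p = 0.419), so the sign for Slc25a17 and St13 was opposite in the 2 genotypes. With treatment group means removed, the T41B sign for Slc25a17 turned to that of wild type. The differences between these values were not tested.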
